A study of Mus musculus with 24 samples.

Results

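The 9 genes described here are nuclear hormone receptors and genes that work with them. They are Esr1 (oestrogen receptor alpha), Esrra (oestrogen-related receptor alpha), Nr3c1 (the glucocorticoid receptor), Vdr (the vitamin D receptor), Rara and Rarg (retinoic acid receptors alpha and gamma), Greb1 (a gene induced by oestrogen in breast cancer cells), and Pgrmc1 and Pgrmc2 (progesterone receptor membrane components). They were picked by symbol from the genes measured, and Esr1 was picked because its level fell most in the cells with both CCR7 and PDPN. The values of Esr1 are therefore a description with no test, and tests are given for the other 8. All 9 are among the 13915 genes found in both count tables, while the batch 1 table lists 55471 genes.

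Polyadenylated RNA was sequenced from 4 derivatives of EO771, a carcinoma line from a spontaneous mammary tumour of C57BL/6 mice. All derivatives carry the retroviral vector PLNCX2 and the red fluorescent reporter tdTomato, and were grown with fetal bovine serum in a medium to which the labels name no added hormone. X2 is the vector control, and CCR7 was transduced with mouse Ccr7 (a chemokine receptor), sorted for tdTomato and CCR7, and depleted of cells with podoplanin (PDPN, a membrane glycoprotein). CCR7-PDPN was sorted from the Ccr7-transduced cells for PDPN that had appeared without any transfer of the gene, and X2-PDPN was sorted in the same way from the vector control. Batch 1 holds X2, CCR7 and CCR7-PDPN, and batch 2 holds X2, X2-PDPN and CCR7-PDPN, each with 4 libraries, 24 in all. Each derivative is 1 sorted population without clonal selection and its 4 libraries are technical replicates, so the p-values measure only the spread between such libraries. A library held 22275468 to 33395418 counts in batch 1, and 22788542 to 35721027 in batch 2.

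Nuclear receptors are transcription factors that bind small lipophilic ligands, often as dimers and often with the retinoid X receptors as partners, and that recruit coactivators or corepressors to response elements in DNA. Oestrogen receptor alpha marks the hormone-responsive luminal cells of the mammary gland and the breast tumours that depend on oestrogen, and its gene is low or silent in triple-negative tumours. The glucocorticoid receptor waits in the cytoplasm with HSP90 and its co-chaperones, the vitamin D and retinoic acid receptors restrain growth in many epithelia, and the PGRMC proteins bind haem and act outside the nucleus.

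The upstream sequences of the 3 genes with the largest range of levels among the groups, Esr1, Greb1 and Vdr, are printed because the differences below are differences in RNA from these genes. Each line holds the 250 bases before a RefSeq transcription start on GRCm38.p6, read on the strand of the gene. The windows are chr10:4611739-4611988 on the + strand for Esr1, chr12:16800887-16801136 on the - strand for Greb1, and chr15:97908297-97908546 on the - strand for Vdr. Esr1 and Greb1 have 2 starts each, and the farthest upstream was used. The Esr1 and Vdr windows lie inside the bounds of the genes as counted, which are given with each gene below. Capitals mark matches to AGGTCA, the hexamer that nuclear receptors bind, or to the GC box GGGCGG, each searched on both strands.
Esr1: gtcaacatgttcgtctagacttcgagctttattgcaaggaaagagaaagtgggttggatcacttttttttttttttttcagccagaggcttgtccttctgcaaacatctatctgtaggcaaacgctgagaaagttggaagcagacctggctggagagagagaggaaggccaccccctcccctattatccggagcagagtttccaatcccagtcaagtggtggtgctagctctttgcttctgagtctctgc
Greb1: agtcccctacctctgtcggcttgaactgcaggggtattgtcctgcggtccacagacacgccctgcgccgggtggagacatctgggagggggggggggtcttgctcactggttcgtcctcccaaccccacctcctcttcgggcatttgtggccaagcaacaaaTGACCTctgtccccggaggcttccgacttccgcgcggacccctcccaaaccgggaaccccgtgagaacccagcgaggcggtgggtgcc
Vdr: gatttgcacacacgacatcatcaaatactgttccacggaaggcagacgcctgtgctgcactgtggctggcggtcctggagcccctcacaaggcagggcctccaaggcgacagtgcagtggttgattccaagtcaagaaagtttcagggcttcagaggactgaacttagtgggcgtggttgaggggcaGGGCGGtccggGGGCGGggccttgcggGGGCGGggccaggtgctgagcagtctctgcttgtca
The Esr1 window holds none of the motifs searched. The Greb1 window holds 1 hexamer, as TGACCT with its first base at -88, and 14.0% of 32851 windows of this length hold at least 1. The Vdr window holds 3 GC boxes with first bases at -63, -52 and -36, and 32.7% of all windows hold at least 1. The oestrogen response element core GGTCANNNTGACC, which shares the letters GGTCA with the hexamer, was in 0.0639% of all windows, and the glucocorticoid response element core GNACANNNTGTNC in 0.387%. Neither core was in the window of any of the 8 genes with an entry, a set that lacks Nr3c1. These are matches of letters in a short window and say nothing of binding.

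The transduced and sorted genes followed the labels. Ccr7 lay at 2720 to 2860 CPM (counts per 1000000 of the normalised library size) in the CCR7 libraries and at 2820 to 3420 in the CCR7-PDPN libraries of both batches, against 0.954 or less in every X2 and X2-PDPN library. Pdpn lay at 23.6 to 26.9 CPM in the CCR7-PDPN and X2-PDPN libraries and at 0.62 or less elsewhere. Replicate 1 of CCR7 stood apart from the rest of its group: chi-square divided by its degrees of freedom was 13.5 to 22.5 in its 3 pairings, whereas the other 33 pairs of replicates gave 2.07 to 8.48. For the 9 genes, most values and the counts of changes that rest on it are given with and without it. Among the exceptions are the comparisons of Esrra and Pgrmc2, the fit of Greb1 with no filter and the counts of groups without overlap. The effect of leaving it out on the gene lists stands after the last list.

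The labels call these cells mouse mammary tumour cells, and the markers of that tissue were mostly absent. Of 15 luminal markers, 10 had at most 3 counts in every batch 1 library (Krt19, Epcam, Gata3, Elf5, Prlr, Cited1, Cd24a, Csn2, Csn3 and Wap), and Krt8, a keratin of simple epithelia, made up nearly all of the summed level, with means of 231 CPM for X2, 245 for CCR7 and 298 for CCR7-PDPN. Of the 10 basal markers, Krt5, Krt14, Krt17 and Trp63 were at 3 counts or fewer, and Itga6, an integrin, was the most abundant, at 328 CPM in X2 of batch 1 and 492 in X2-PDPN. Basal markers outside the keratins moved with the derivatives: Mylk, a myosin kinase of contractile cells, was at 3.64 and 3.65 on the log2 scale in CCR7-PDPN against X2 of batches 1 and 2, and Acta2, a smooth muscle actin, at -1.25 and -1.20. Of the luminal markers that could be tested, Foxa1 was at -1.77 and -1.19 and Muc1 at -1.01 and -0.89 in the same comparisons, while Krt8 was at 0.37 and 0.41. Among 7 fibroblast markers Pdgfra led with 156 CPM while Lum, Dcn, Fap and Thy1 were at 3 counts or fewer, and the 6 endothelial markers summed to between 0.801 and 1.52 CPM in every batch 1 library. Col1a1, a fibroblast collagen, was at 1.37 in X2-PDPN against X2 and -1.66 in CCR7-PDPN against X2-PDPN, where Pdgfra was at 0.17 and -0.21 and Pdgfrb, in the opposite direction, at -0.29 and 0.20. The batch 2 table holds 3 of the luminal, 4 of the basal, 3 of the fibroblast and 3 of the endothelial markers. Of these endothelial markers, Cdh5 was at -1.48 in X2-PDPN against X2 and 2.44 in CCR7-PDPN against X2-PDPN. Pecam1 was at 1.14 and -0.66 and Lyve1 at -0.09 and 0.32 in the same comparisons, all with a mean below 1 CPM. The part of other cell types in the results below was not tested. Leukocyte markers are given beside Esr1.

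Differences were tested within a batch with the quasi-likelihood method of edgeR and adjusted by Benjamini-Hochberg over all genes tested, the source of every adjusted p below, and a gene is called changed at an adjusted p under 0.05. Each group, CCR7 and X2-PDPN included, stands in 2 comparisons of its batch, so those comparisons share libraries. Greb1 was too low to be tested in batch 1, which left 7 genes besides Esr1 there and 8 in batch 2. In CCR7 against X2, 3 of 7 changed (Vdr, Rarg and Pgrmc1, all lower), where 49.3% of all genes did. In CCR7-PDPN against CCR7, 4 of 7 changed (Rara and Rarg higher, Nr3c1 and Pgrmc1 lower), against 41.6%, and in CCR7-PDPN against X2 of batch 1 it was 4 of 7 (Rara higher, Vdr, Nr3c1 and Pgrmc1 lower), against 60.9%. X2-PDPN against X2 changed 6 of 8 (Greb1, Vdr, Rara and Pgrmc2 higher, Nr3c1 and Pgrmc1 lower), against 56.8%. CCR7-PDPN against X2-PDPN changed 4 of 8 (Vdr, Greb1, Nr3c1 and Rarg, all lower), against 63.2%, and CCR7-PDPN against X2 of batch 2 changed 5 of 8 (Rara higher, Vdr, Nr3c1, Pgrmc1 and Rarg lower), against 64.8%. The shares of the 8 genes thus lay near or below those of all genes, except in X2-PDPN against X2 and in CCR7-PDPN against CCR7, where they were above by fewer than 2 genes. Leaving aside Greb1, which passed the filter on low counts in batch 2 through X2-PDPN, where it was highest, the counts in batch 2 were 5 of 7, 3 of 7 and 5 of 7. Without replicate 1 of CCR7, 2 of 7 changed in CCR7 against X2 and 4 of 7 in CCR7-PDPN against CCR7.

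Few of these changes were large. A change with an absolute log2 fold change above 1 was seen in 6.48% of all genes in CCR7 against X2 and in 3.27% in CCR7-PDPN against CCR7, but the 7 genes reached no further than -0.85 and -0.47 there. It was found for Vdr in CCR7-PDPN against X2 in batch 1 (9.45% of all genes) and in batch 2 (9.63%), for Greb1 in X2-PDPN against X2 (5.05%), and for Vdr and Greb1 in CCR7-PDPN against X2-PDPN (9.16%). Groups without overlap between libraries were seen for 2 of 7 genes in CCR7 against X2 (44.1% of all genes), for 4 of 7 in CCR7-PDPN against CCR7 (34.2%) and for 4 of 7 in CCR7-PDPN against X2 of batch 1 (58.7%). In batch 2 they were seen for 6 of 8 in X2-PDPN against X2 (50.6%), 4 of 8 in CCR7-PDPN against X2-PDPN (54.8%) and 5 of 8 in CCR7-PDPN against X2 (57.5%). The median log2 fold change of the tested genes besides Esr1 lay between -0.17 and 0.08 in the 6 comparisons, and that of all genes between -0.003 and 0.003.

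**Figure D1:**
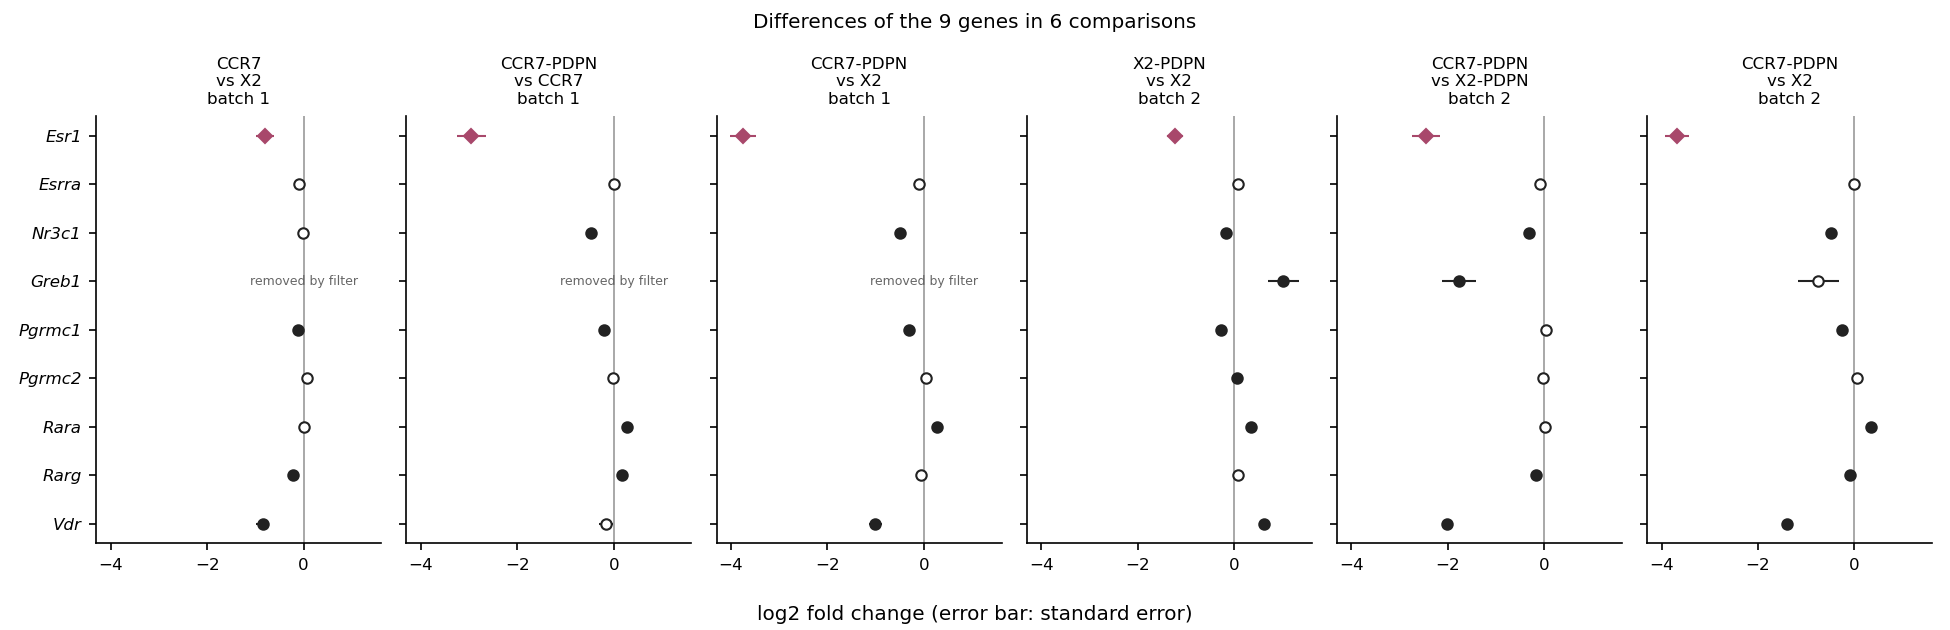
Log2 fold change (x axis) of the 9 genes (rows) in the 6 within-batch comparisons (panels), with bars of 1 standard error; filled circles mark an adjusted p under 0.05, open circles none, and diamonds mark Esr1, which was not tested. Esr1 lies left of 0 in every panel, from -0.80 to -3.76, and Vdr reaches -2.01 in CCR7-PDPN against X2-PDPN but 0.62 in X2-PDPN against X2.

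Esr1 (ENSMUSG00000019768, chr10:4611593-5005614 on the + strand, 13661 exonic bases) was, at 0.571 TPM (counts per exonic length, scaled to a sum of 1000000 per library), the lowest of the 27 nuclear receptor genes found in both tables in X2 of batch 1. In X2 of batch 2, at 0.665 TPM, it was above Nr4a3 (0.645), Hnf4a (0.638) and Nr1h4 (0.612). In X2 it had 45, 58, 64 and 68 counts in the batch 1 libraries and 72, 64, 80 and 66 in batch 2. CCR7 had 38, 41, 32 and 27 counts, and X2-PDPN had 30, 40, 34 and 24. CCR7-PDPN had 4, 7, 3 and 4 counts in batch 1 and 5, 7, 6 and 3 in batch 2. Within each batch no library of X2 overlapped a library of the PDPN-sorted or Ccr7-transduced cells, and the CCR7-PDPN libraries lay below all others. Although CPM was scaled separately in each batch, the X2 libraries of the 2 batches overlapped, as did those of CCR7 and X2-PDPN, which belong to different batches. As Esr1 passed the filter on low counts through the groups where it was higher, its levels in CCR7-PDPN are close to the limit of these depths, where a count of 0 allows up to 3.

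The mean level of Esr1 was 2.08 ± 0.37 CPM for X2, 1.20 ± 0.191 for CCR7 and 0.148 ± 0.0525 for CCR7-PDPN of batch 1 (SD, n = 4 libraries each). In batch 2 it was 2.43 ± 0.243 CPM for X2, 1.03 ± 0.115 for X2-PDPN and 0.187 ± 0.0534 for CCR7-PDPN. Esr1 was thus lower with CCR7 alone and with PDPN alone, and lowest with both. The log2 fold change was -0.80 (standard error, SE, 0.18) in CCR7 against X2 and -1.22 (SE 0.17) in X2-PDPN against X2, which are 1.74-fold and 2.34-fold lower. CCR7-PDPN lay at -2.96 (SE 0.30) against CCR7 and -2.45 (SE 0.29) against X2-PDPN. Against X2 it lay at -3.76 (SE 0.27) in batch 1 and -3.67 (SE 0.25) in batch 2, or 13.5-fold and 12.7-fold lower. The step from CCR7 or X2-PDPN to CCR7-PDPN was thus larger in these values than the step from X2 to either. The difference of CCR7-PDPN from CCR7 exceeded that of X2-PDPN from X2 by -1.73 (SE 0.35) on the log2 scale, where CCR7 and batch cannot be told apart. Without replicate 1 of CCR7 the values were -0.79 against X2, -2.96 for CCR7-PDPN against CCR7 and -1.74 for the excess.

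**Figure D2:**
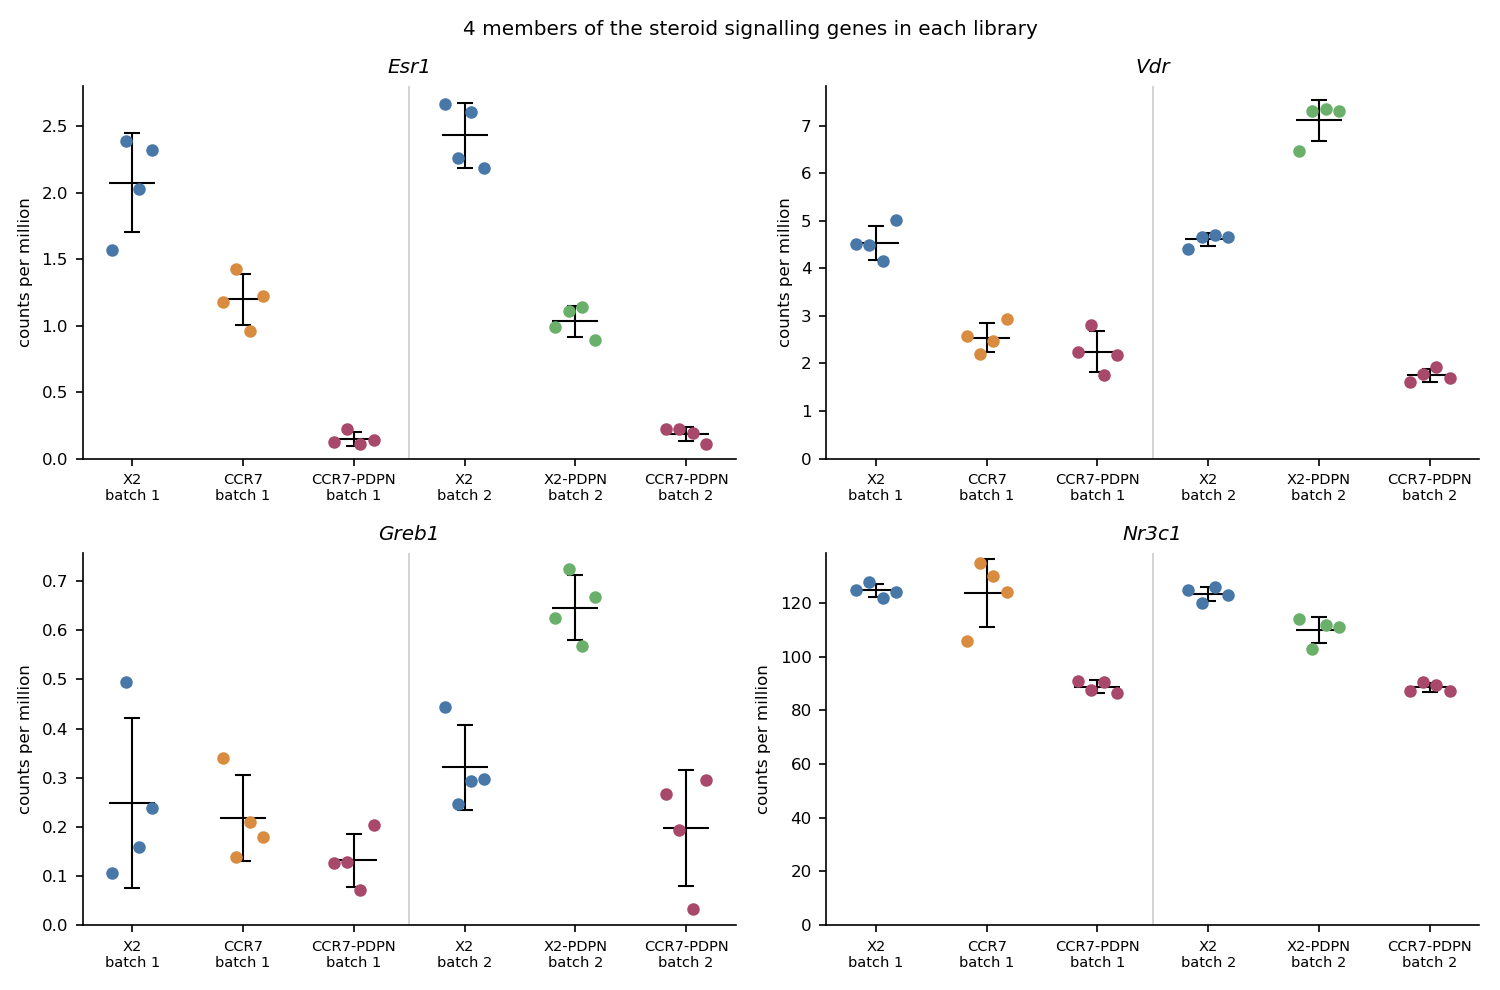
CPM (y axis, from 0) of Esr1, Vdr, Greb1 and Nr3c1 in each of the 24 libraries by derivative and batch (x axis), with the group mean as a long line and the SD of 4 libraries as bars. Esr1 steps down from X2 to CCR7-PDPN in both batches (2.08 to 0.148 and 2.43 to 0.187), while Vdr and Greb1 peak in X2-PDPN (7.12 and 0.646) and Nr3c1 is lowest in CCR7-PDPN (88.9 and 88.6).

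The genes around Esr1 did not share its difference: the 21 or 22 genes tested within 5 Mb on either side had a median log2 fold change between -0.08 and 0.06 in the 6 comparisons. In a bulk sample fewer cells with a transcript and less of it per cell cannot be told apart. Of 7 leukocyte markers, Cd68, a lysosomal protein, and Lyz2, the lysozyme of myeloid cells, could be tested, and only these are in the batch 2 table. The markers listed summed to 50.9 to 59.9 CPM for X2, 15.6 to 21.2 for CCR7 and 9.1 to 11.7 for CCR7-PDPN of batch 1, and to 51.8 to 56.7 for X2, 25.8 to 30.2 for X2-PDPN and 8.14 to 10.8 for CCR7-PDPN of batch 2. Cd68 had means of 47.4, 16.8 and 9.50 CPM in batch 1 and 45.9, 21.1 and 8.89 in batch 2, the order of Esr1. Lyz2 had means of 6.84, 1.88 and 0.719 CPM in batch 1 and 7.55, 6.61 and 0.572 in batch 2. Its log2 fold change in CCR7-PDPN against X2 was -3.24 and -3.70, beside -3.76 and -3.67 for Esr1, and that of Cd68 was -2.32 and -2.36. X2-PDPN against X2 gave -1.11 for Cd68 and -0.19 for Lyz2 (edgeR adjusted p = 6e-12 and 0.058). Ptprc, the pan-leukocyte phosphatase, had 0 to 4 counts in the X2 libraries of batch 1 and at most 2 in the others. Cd3e, Itgam and Adgre1 had at most 3 counts in every batch 1 library, and the part of leukocytes in the result was not tested.

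Among the 1282 genes compared with Esr1, 5 followed it most closely. The 1282 have a mean of at least 1 CPM and group means that range over at least 1 on the log2 scale. They are only a part of the genes tested, chosen for large differences between groups. The ranking holds only within them. By Pearson correlation of the mean log2 CPM over the 6 groups, centred within each batch, the most similar of 1282 genes were Tubb3 (r = 0.9993), Ankrd1 (0.9991), Map2k6 (0.9988), Prickle1 (0.9977) and Ly9 (0.997). The 6 points share their libraries and depth, and the values are a description. Map2k6, a stress-activated protein kinase, lay at -3.94 and -4.16 on the log2 scale in CCR7-PDPN against X2 of batches 1 and 2, close to Esr1. The neuronal tubulin gene Tubb3 had the same order at a smaller size, with -1.04 and -1.02.

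Greb1 (ENSMUSG00000036523, chr12:16670615-16800886 on the - strand, 9580 exonic bases) did not follow Esr1. Its counts were 12, 7, 9 and 9 in X2 of batch 2, 19, 26, 17 and 18 in X2-PDPN, and 6, 6, 1 and 8 in CCR7-PDPN. The X2-PDPN libraries were above all others of the batch, and those of X2 and CCR7-PDPN overlapped. In batch 1 its counts were 3, 12, 5 and 7 for X2, 11, 4, 7 and 4 for CCR7, and 4, 4, 2 and 6 for CCR7-PDPN, too few to be tested there. The 3 groups of batch 1 overlapped. In batch 2 the means were 0.321 ± 0.0855 CPM for X2, 0.646 ± 0.0658 for X2-PDPN and 0.196 ± 0.118 for CCR7-PDPN (SD, n = 4). Greb1 was 2.02-fold higher in X2-PDPN than in X2 (log2 fold change 1.02, SE 0.32, edgeR adjusted p = 0.0062), with 31 neighbouring genes at a median of 0.20. It was 3.41-fold lower in CCR7-PDPN than in X2-PDPN (-1.77, SE 0.36, edgeR adjusted p = 4.5e-05), and CCR7-PDPN against X2 gave -0.75 (SE 0.43, edgeR adjusted p = 0.12). The value against X2 lay between -1.04 and -0.36 when each replicate was left out. Because Greb1 entered this fit through X2-PDPN, it was also tested with no filter on low counts, which gave 1.01 in X2-PDPN against X2 and -1.76 in CCR7-PDPN against X2-PDPN (edgeR adjusted p = 0.0079 and 6.5e-05). In batch 1 that fit gave -0.11 in CCR7 against X2, -0.72 in CCR7-PDPN against CCR7 and -0.84 in CCR7-PDPN against X2 (edgeR adjusted p = 0.94, 0.43 and 0.26). Its PDPN difference with CCR7 minus that without was -1.74 (SE 0.61, edgeR adjusted p = 0.02). Without replicate 1 of CCR7 this was -1.43 and the edgeR adjusted p = 0.08, the highest of the alternatives, whose range starts at 0.015.

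This difference of differences passed the test for 3 of the 8 genes besides Esr1 (Vdr, Nr3c1 and Greb1, all negative), where 40.8% of 13690 genes did. It was computed over all 24 libraries, and sets CCR7-PDPN against CCR7 in batch 1 beside X2-PDPN against X2 in batch 2. Without replicate 1 of CCR7 it passed for 2 of the 8. It did not pass for Esrra, Pgrmc1, Pgrmc2, Rara and Rarg, with values between -0.08 and 0.08, although Pgrmc2 passed under 2 of 22 alternatives.

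Counts of changed genes on the lists that follow stand beside the shares of all tested genes that changed, and no list was tested as a set. Of 13261 genes, 3189 were higher and 3345 (25.2%) lower in CCR7 against X2, with 20.9% higher and 20.7% lower in CCR7-PDPN against CCR7, and 30.3% and 30.6% in CCR7-PDPN against X2 of batch 1. In batch 2, 28.2% were higher and 28.5% lower in X2-PDPN against X2, 31.2% and 32.0% in CCR7-PDPN against X2-PDPN, and 32.0% and 32.8% in CCR7-PDPN against X2. The difference of differences was positive for 20.3% and negative for 20.5%.

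Known oestrogen targets were counted first, a list of 28 symbols that holds Greb1 and Rara themselves. In X2-PDPN against X2, where Esr1 was lower, 14 of 21 tested were higher and 5 lower, beside 28.2% and 28.5% of all genes, with a median log2 fold change of 0.30. Among targets with a mean of at least 1 CPM, the largest rises were in Egr3, an immediate-early transcription factor (1.93, SE 0.13, edgeR adjusted p = 1.8e-16), and Areg, the EGF receptor ligand amphiregulin (1.01, SE 0.11, edgeR adjusted p = 1.9e-10). In CCR7-PDPN against X2-PDPN, where Esr1 was lower again, 4 of 21 were higher and 13 lower, beside 31.2% and 32.0%, with a median of -0.26. Greb1 is among the 14 and the 13, and without it, as it entered through X2-PDPN, the counts were 13 higher and 5 lower of 20 (median 0.29) and then 4 higher and 12 lower (-0.22). Fos fell by 1.92, Egr3 by 1.83 and Areg by 1.80 on the log2 scale in that comparison. Egr3 lay at 1.48 CPM for X2, 5.68 for X2-PDPN and 1.58 for CCR7-PDPN of batch 2, so that it was high only in X2-PDPN among the groups of this batch. CCR7-PDPN against X2 of batch 2 gave 7 higher and 11 lower (median -0.10), with Fos at -1.62 and Ccn5, a matricellular protein, at -1.20. In batch 1 the same comparison gave -0.51 for Fos (edgeR adjusted p = 0.13).

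In batch 1 the same list was split more evenly. Of 20 tested, 5 were higher and 5 lower in CCR7 against X2 (median 0.00), 6 higher and 7 lower in CCR7-PDPN against CCR7 (-0.01), and 7 higher and 9 lower in CCR7-PDPN against X2 (-0.12). Areg fell by 1.21 in CCR7 against X2 (SE 0.18, edgeR adjusted p = 7.1e-06), from 2.87 to 1.20 CPM. Olfm1, a secreted olfactomedin, was higher by 1.04 in both CCR7 and CCR7-PDPN against X2, and Ccn5 was at -1.46 in CCR7-PDPN against X2. The difference of differences was positive for 1 of 21 targets and negative for 13 (median -0.27), or for 1 and 12 of 20 without Greb1. Egr3 gave -1.40 (SE 0.24, edgeR adjusted p = 1.1e-05) in it.

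**Figure D3:**
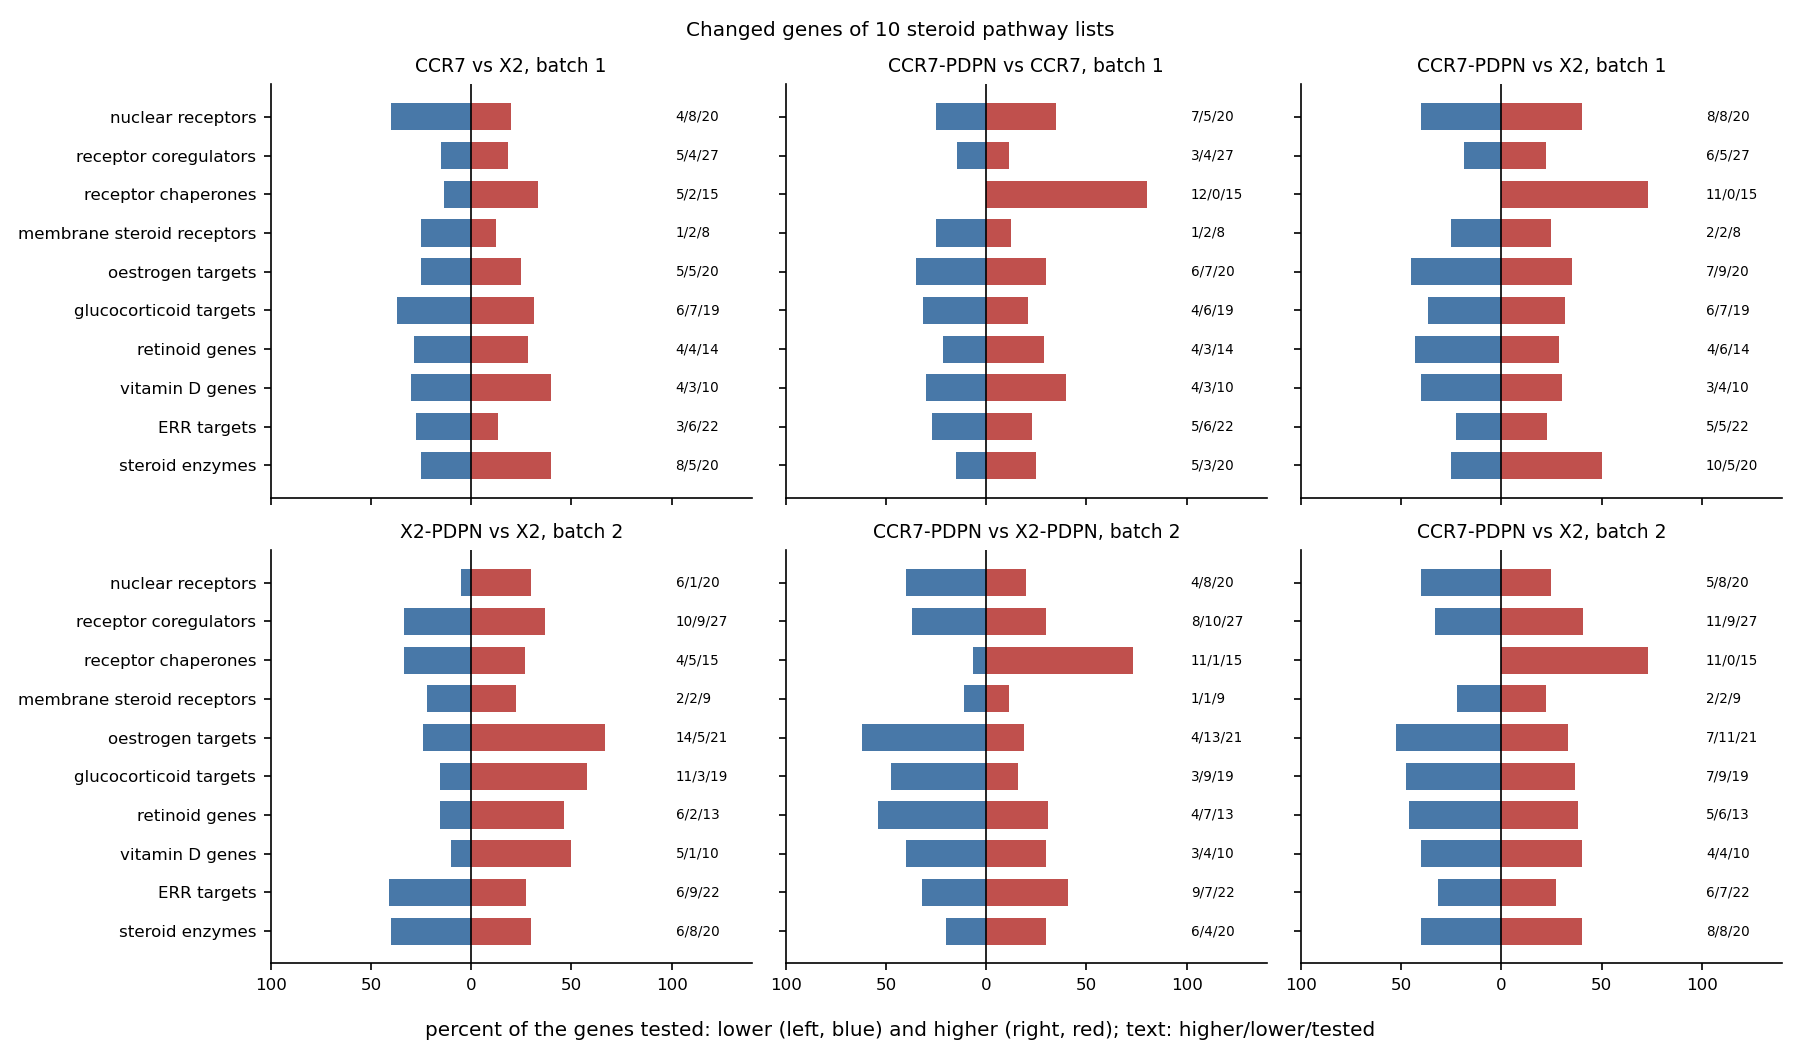
Percent of the tested genes of 10 lists (rows) that were lower (blue, left) or higher (red, right) at an adjusted p under 0.05 in each comparison (panels), with the counts higher, lower and tested at the right of each row. Oestrogen targets turn from 14 higher and 5 lower in X2-PDPN against X2 to 4 higher and 13 lower in CCR7-PDPN against X2-PDPN, and receptor chaperones are higher for 11 or 12 of 15 in the 4 comparisons of CCR7-PDPN.

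Esrra (ENSMUSG00000024955, chr19:6910977-6921840 on the - strand), an orphan receptor that drives mitochondrial genes, did not pass the test in any comparison. Its levels lay between 12.0 and 16.0 CPM in the 24 libraries, with group means of 11.3 to 12.4 TPM. The groups overlapped in every comparison. The log2 fold changes lay between -0.10 and 0.08 with an SE of 0.06 to 0.069. Esrra ends in the neighbouring Trmt112 on the other strand, and whether the counting used strand is not given in the sources used here. Of 22 tested targets of the oestrogen-related receptors, between 9 (in CCR7 against X2) and 16 (in CCR7-PDPN against X2-PDPN) changed, in both directions in each comparison, with medians between -0.07 and 0.04. Among those with a mean of at least 1 CPM, Ckmt2, a mitochondrial creatine kinase, had the largest change in each comparison but CCR7-PDPN against CCR7. It rose from 5 to 7 counts per library of X2 to 46 to 89 per CCR7 library and 95 to 129 per CCR7-PDPN library of batch 1, a log2 fold change of 3.97 (SE 0.19, edgeR adjusted p = 9.4e-14) for CCR7-PDPN against X2. In batch 2 it was 2.22 in X2-PDPN against X2 and 4.17 in CCR7-PDPN against X2 (edgeR adjusted p = 3.8e-08 and 8e-20). Ckmt2 passed the filter on low counts through the derivatives where it was higher. In batch 1, whose table lists 55471 genes, a fit with no such filter also gave 3.97 and passed the test. In batch 2 that fit gave 2.22 and 4.17, but the deposited table itself holds only genes with at least 10 counts in some library. The batch 2 values of Ckmt2 are therefore a description. Cox6a2, a muscle subunit of cytochrome oxidase, fell by 2.04 in CCR7-PDPN against CCR7. Ppargc1a, a coactivator of these receptors that is below that level and was named after its values were seen, had 16 to 43 counts in X2 of batch 1 and 0 to 4 in CCR7-PDPN, and is given with no test. The counts of changed targets above nevertheless hold Ppargc1a among the lower and Ckmt2 among the higher genes in every comparison. Both passed the filter through groups where they were higher, so their part in these counts is no test.

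Nr3c1 (chr18:39410545-39519421 on the - strand, 7684 exonic bases) was the most abundant of the steroid receptors in the set, with a mean of 61.0 TPM in X2 of batch 1 against 0.571 for Esr1 and 3.02 for Vdr. In CPM it lay at 125, 128, 122 and 124 in the X2 libraries, at 106, 135, 130 and 124 in CCR7, and at 91.0, 87.6, 90.7 and 86.4 in CCR7-PDPN of batch 1. In batch 2 it lay at 125, 120, 126 and 123 for X2, at 114, 103, 112 and 111 for X2-PDPN, and at 87.4, 90.5, 89.5 and 87.1 for CCR7-PDPN. The CCR7-PDPN libraries were the lowest in both batches without overlap, X2-PDPN lay between, and X2 and CCR7 overlapped, with replicate 1 of CCR7 below the rest of its group. Nr3c1 was 1.39-fold lower in CCR7-PDPN than in CCR7 (log2 fold change -0.47, SE 0.055, edgeR adjusted p = 3.5e-06), a value of -0.54 without that replicate. CCR7-PDPN against X2 gave -0.49 (edgeR adjusted p = 6.6e-07) in batch 1 and -0.48 (1.1e-17) in batch 2, and CCR7-PDPN against X2-PDPN gave -0.31 (1.6e-11).

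X2-PDPN against X2 gave -0.17 for Nr3c1 (SE 0.031, edgeR adjusted p = 5.7e-06), a size that its surroundings shared. The 89 genes tested within 5 Mb had a median of -0.14 there, with 41 lower and 17 higher. In CCR7-PDPN against CCR7 the 91 neighbours had a median of -0.19, with 41 lower and 5 higher, and Nr3c1 differed from it by -0.29. In CCR7-PDPN against X2-PDPN the neighbours were at 0.01. CCR7 against X2 gave -0.01 (edgeR adjusted p = 0.84), and 0.05 without replicate 1 of CCR7. The difference of differences was -0.30 (SE 0.064, edgeR adjusted p = 0.00035), and -0.37 without replicate 1 of CCR7.

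Of 15 chaperones and co-chaperones of steroid receptors, 12 were higher in CCR7-PDPN against CCR7 (median 0.17), where 20.9% of all genes were. In CCR7-PDPN against X2 it was 11 of 15 in each batch (0.15 and 0.16), beside 30.3% and 32.0% of all genes, and the remaining 3 or 4 did not pass. Against X2-PDPN 11 were higher and 1 lower (0.15), beside 31.2% and 32.0%. CCR7 against X2 gave 5 higher and 2 lower, and X2-PDPN against X2 gave 4 higher and 5 lower, both with a median of 0.01. The sizes were small. Fkbp5, a co-chaperone that lowers the affinity of the glucocorticoid receptor and is itself a glucocorticoid target, had means of 304, 347 and 396 CPM in X2, CCR7 and CCR7-PDPN of batch 1, and its log2 fold change in CCR7-PDPN against X2 was 0.38 (SE 0.03, edgeR adjusted p = 4.3e-10). In batch 2 it lay at 310, 357 and 397 CPM in X2, X2-PDPN and CCR7-PDPN, the reverse order of Nr3c1. Fkbp4, which assists the same receptor, was at 0.22 in CCR7-PDPN against CCR7 and the cyclophilin Ppid at 0.35 in CCR7-PDPN against X2-PDPN. The difference of differences was positive for 7 of 15, and 8 did not pass, with a median of 0.15.

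Of 19 glucocorticoid targets tested, 11 were higher and 3 lower in X2-PDPN against X2 (median 0.12), beside 28.2% and 28.5% of all genes. In CCR7-PDPN against X2-PDPN 3 were higher and 9 lower (-0.15), beside 31.2% and 32.0%. The other 4 comparisons gave 6 higher and 7 lower in CCR7 against X2, 4 and 6 in CCR7-PDPN against CCR7, 6 and 7 in CCR7-PDPN against X2 of batch 1 and 7 and 9 in batch 2, with medians between -0.06 and 0.02. Cavin2, a coat protein of caveolae, had the largest change, with means of 2.40 CPM for X2, 5.99 for X2-PDPN and 0.906 for CCR7-PDPN of batch 2. Its log2 fold change was 1.32 (SE 0.13, edgeR adjusted p = 8e-12) in X2-PDPN against X2 and -2.76 (SE 0.16, edgeR adjusted p = 4e-19) in CCR7-PDPN against X2-PDPN. Mt2, a metallothionein, fell by 0.75 in CCR7 against X2 and by 1.37 in CCR7-PDPN against X2-PDPN. Sgk1, a kinase on the oestrogen list too, fell by 0.42 in CCR7-PDPN against CCR7 and by 1.18 in CCR7-PDPN against X2-PDPN, from 30.7 to 13.5 CPM.

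Vdr (ENSMUSG00000022479, chr15:97854425-97910630 on the - strand, 5650 exonic bases) differed between the groups in both directions. Its counts were 129, 109, 131 and 147 for X2, 83, 63, 82 and 65 for CCR7, and 71, 88, 50 and 64 for CCR7-PDPN of batch 1. In batch 2 they were 119, 132, 144 and 141 for X2, 197, 263, 220 and 197 for X2-PDPN, and 36, 55, 61 and 46 for CCR7-PDPN. In CPM the X2 libraries of batch 1 were above those of CCR7 and CCR7-PDPN, which overlapped, and in batch 2 the 3 groups were apart, X2-PDPN highest and CCR7-PDPN lowest. The means were 4.54 ± 0.353 CPM for X2, 2.54 ± 0.303 for CCR7 and 2.25 ± 0.437 for CCR7-PDPN of batch 1, and 4.61 ± 0.137 for X2, 7.12 ± 0.423 for X2-PDPN and 1.75 ± 0.138 for CCR7-PDPN of batch 2 (SD, n = 4).

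Vdr was 1.80-fold lower in CCR7 than in X2 (log2 fold change -0.85, SE 0.13, edgeR adjusted p = 1.1e-05), and -0.86 without replicate 1 of CCR7. It was 1.54-fold higher in X2-PDPN than in X2 (0.62, SE 0.089, edgeR adjusted p = 7.1e-08). The pair that differs in Ccr7 among PDPN-positive cells, CCR7-PDPN against X2-PDPN, gave the largest difference of Vdr, 4.04-fold lower (-2.01, SE 0.11, edgeR adjusted p = 1.4e-20). CCR7-PDPN lay below X2 by 2.01-fold in batch 1 (-1.01, SE 0.13, edgeR adjusted p = 8.2e-07) and 2.62-fold in batch 2 (-1.39, SE 0.12, edgeR adjusted p = 4.8e-14), and against CCR7 it gave -0.16 (SE 0.14, edgeR adjusted p = 0.39). The last value was -0.15 without replicate 1 of CCR7. The difference of differences was -0.78 (SE 0.16, edgeR adjusted p = 0.0001), and -0.77 without that replicate. The 131 neighbouring genes moved with Vdr in part: in X2-PDPN against X2 their median was 0.22, with 88 higher and 12 lower, and in CCR7-PDPN against X2-PDPN it was -0.18, with 9 higher and 80 lower. Vdr differed from these medians by 0.40 and -1.84. Around it the median lay between -0.01 and 0.02 in the other 4 comparisons.

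Genes of vitamin D metabolism and response (10 tested) changed in both directions. They were 4 higher and 3 lower in CCR7 against X2, 4 and 3 in CCR7-PDPN against CCR7, 3 and 4 in CCR7-PDPN against X2 of batch 1, 5 and 1 in X2-PDPN against X2, 3 and 4 in CCR7-PDPN against X2-PDPN, and 4 and 4 in CCR7-PDPN against X2 of batch 2. Medians lay between 0.00 and 0.23. Spp1, which encodes osteopontin, had the order of Vdr in batch 2, with means of 140 CPM for X2, 205 for X2-PDPN and 79.8 for CCR7-PDPN. It was at -1.32 in CCR7 against X2 (SE 0.035, edgeR adjusted p = 1.8e-17) and at -1.36 in CCR7-PDPN against X2-PDPN (SE 0.029, edgeR adjusted p = 1.2e-35), but higher by 0.45 in CCR7-PDPN against CCR7. Dhcr7, which diverts the precursor of vitamin D to cholesterol, was higher by 0.84 in X2-PDPN against X2. Cyp24a1, which breaks down active vitamin D and is a direct Vdr target, was named after its values were seen. It had 4 to 12 counts in the X2-PDPN libraries and at most 4 in any other library.

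Rara (chr11:98927818-98974942 on the + strand, 4365 exonic bases) was higher in the PDPN-sorted cells. It lay at 44.5, 42.4, 43.8 and 45.8 CPM for X2, 47.0, 42.9, 43.7 and 42.7 for CCR7, and 51.0, 54.7, 51.8 and 57.3 for CCR7-PDPN of batch 1. Batch 2 gave 41.4, 43.4, 40.9 and 41.1 for X2, 52.4, 53.9, 53.0 and 52.7 for X2-PDPN, and 55.9, 56.0, 49.8 and 51.6 for CCR7-PDPN. In each batch every PDPN-sorted library was above every other library, and the 2 sorted groups of batch 2 overlapped. The log2 fold change was 0.28 in CCR7-PDPN against CCR7 (SE 0.044, edgeR adjusted p = 3.1e-05) and 0.35 in X2-PDPN against X2 (SE 0.039, edgeR adjusted p = 3.6e-10), that is 1.22-fold and 1.27-fold higher. CCR7-PDPN against X2 gave 0.28 and 0.35 in the 2 batches, whereas CCR7 against X2 gave 0.00 and CCR7-PDPN against X2-PDPN 0.01 (edgeR adjusted p = 0.99 and 0.89). With replicate 1 of CCR7 left out, Rara was at 0.32 in CCR7-PDPN against CCR7 and -0.03 in CCR7 against X2. The neighbours of Rara, 202 or 204 genes, had medians between -0.01 and 0.08.

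Rarg (chr15:102234938-102257517 on the - strand, 4261 exonic bases) had no such order. Its means were 55.0, 46.9 and 52.4 CPM in X2, CCR7 and CCR7-PDPN of batch 1 and 54.4, 57.6 and 51.1 in X2, X2-PDPN and CCR7-PDPN of batch 2. The CCR7 libraries, at 46.2 to 48.0 CPM, lay below all other batch 1 libraries, by a log2 fold change of -0.23 against X2 (SE 0.045, edgeR adjusted p = 0.00022), and CCR7-PDPN against CCR7 gave 0.16 (edgeR adjusted p = 0.0071). Leaving out replicate 1 of CCR7 made these -0.24 and 0.17. CCR7-PDPN against X2-PDPN gave -0.18 (edgeR adjusted p = 0.00017), equal to the median of its 126 neighbours, of which 78 were lower and 9 higher. In X2-PDPN against X2 the neighbours were at 0.28, with 90 higher and 8 lower, and Rarg at 0.08 (edgeR adjusted p = 0.077). Rarg and Vdr lie on the same chromosome within 5 Mb of each other, so that they share neighbours. CCR7-PDPN against X2 gave -0.07 in batch 1 (edgeR adjusted p = 0.19) and -0.09 in batch 2 (edgeR adjusted p = 0.037), a pass that was lost under 5 of 16 alternatives, over all of which the adjusted p ranged from 0.012 to 0.26.

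Retinoid genes (14 tested in batch 1 and 13 in batch 2) were 4 higher and 4 lower in CCR7 against X2, 4 and 3 in CCR7-PDPN against CCR7, and 4 and 6 in CCR7-PDPN against X2 of batch 1. In batch 2 they were 6 higher and 2 lower in X2-PDPN against X2, 4 and 7 in CCR7-PDPN against X2-PDPN and 5 and 6 in CCR7-PDPN against X2, with medians from -0.27 to 0.14 over the 6. Stra6, the membrane receptor that takes up retinol, was higher in every derivative than in X2. Its means were 1.72, 5.56 and 6.18 CPM in X2, CCR7 and CCR7-PDPN of batch 1 and 1.92, 10.1 and 5.55 in X2, X2-PDPN and CCR7-PDPN of batch 2, with log2 fold changes of 1.69 (CCR7), 1.85 and 1.54 (CCR7-PDPN) and 2.39 (X2-PDPN; SE 0.11, edgeR adjusted p = 5.6e-23). Rdh11, a retinal reductase, was higher by 0.64 in CCR7-PDPN against CCR7. Rarres2, which encodes chemerin, was higher by 1.66 in X2-PDPN against X2 and lower in CCR7-PDPN against X2-PDPN, at -1.47.

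Pgrmc1 (chrX:36598206-36606079 on the + strand) and Pgrmc2 (chr3:41066326-41083046 on the - strand) were the most abundant genes of the set per length. Pgrmc2 had group means of 108 to 116 TPM and Pgrmc1 of 91.2 to 115. In CPM, Pgrmc1 lay at 57.4, 58.8, 52.8 and 58.7 for X2, 49.4, 54.2, 53.1 and 54.0 for CCR7, and 47.0, 47.3, 44.6 and 44.4 for CCR7-PDPN of batch 1. In batch 2 it lay at 55.2, 55.0, 58.1 and 55.3 for X2, 47.0, 46.7, 44.0 and 46.9 for X2-PDPN and 49.2, 43.8, 47.4 and 48.5 for CCR7-PDPN. In each batch all PDPN-sorted libraries were below all others, the opposite of Rara, and X2-PDPN and CCR7-PDPN overlapped. Pgrmc1 of X2-PDPN lay below that of X2 (log2 fold change -0.28, SE 0.039, edgeR adjusted p = 4.9e-08) and that of CCR7-PDPN below CCR7 (-0.20, SE 0.043, edgeR adjusted p = 0.0009; -0.23 without replicate 1 of CCR7). In CCR7-PDPN it lay below X2 in both batches (-0.31 and -0.25). CCR7 against X2 gave -0.11 (edgeR adjusted p = 0.037), and -0.08 with an edgeR adjusted p = 0.1 without replicate 1 of CCR7, in a range of 0.01 to 0.11 over the alternatives. CCR7-PDPN against X2-PDPN gave 0.03 (edgeR adjusted p = 0.53). The neighbours of Pgrmc1, 27 or 28 genes, had medians between -0.08 and 0.00. Pgrmc2 lay between -0.02 and 0.07, and its 1 pass, 0.07 in X2-PDPN against X2 (edgeR adjusted p = 0.043), was lost under 9 of 16 alternatives, where the adjusted p ranged from 0.009 to 0.15.

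On the list of membrane and non-classical steroid receptors, which holds Pgrmc1 and Pgrmc2, 3 of 8 tested changed in CCR7 against X2 (49.3% of all genes), 3 of 8 in CCR7-PDPN against CCR7 (41.6%) and 4 of 8 in CCR7-PDPN against X2 of batch 1 (60.9%). Batch 2 gave 4 of 9 in X2-PDPN against X2 (56.8%), 2 of 9 in CCR7-PDPN against X2-PDPN (63.2%) and 4 of 9 in CCR7-PDPN against X2 (64.8%). Paqr7, a membrane progestin receptor, was at 0.24 in CCR7 against X2 (SE 0.054, edgeR adjusted p = 0.00077). Nenf, a PGRMC relative that is secreted, was at -0.38 in CCR7-PDPN against X2 in both batches. Serbp1, an RNA-binding partner of PGRMC1, was at 0.20 in CCR7-PDPN against X2-PDPN. Medians lay between -0.02 and 0.06.

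Across the nuclear receptor family, several steroid receptors were at or near the limit of detection. Of 47 receptor genes with an identifier, 27 were in both tables and 18 had at most 3 counts in every batch 1 library. Pgr, the progesterone receptor, had 0 counts in all 12 batch 1 libraries, which allows up to 3 counts a library, or 0.0898 to 0.135 CPM, and such limits cover counting error only. Esr2 (oestrogen receptor beta) and Rarb had at most 1 count in any of them, Nr3c2 (the mineralocorticoid receptor) at most 2, Esrrb at most 6 and Esrrg at most 7. Of the receptors named here, in TPM in X2 of batch 1, Rxrb (115) and Rxra (72.1), the common partners, were above Nr3c1 (61.0), Thra (50.2), Rarg (48.4) and Rara (38.0), followed by Esrra (12.4), Vdr (3.02) and Esr1 (0.571). Neighbours in that order did not all differ beyond their spread: Thra, at 50.2 ± 1.67 TPM, and Rarg, at 48.4 ± 0.797, differed by about the spread of Thra.

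**Figure D4:**
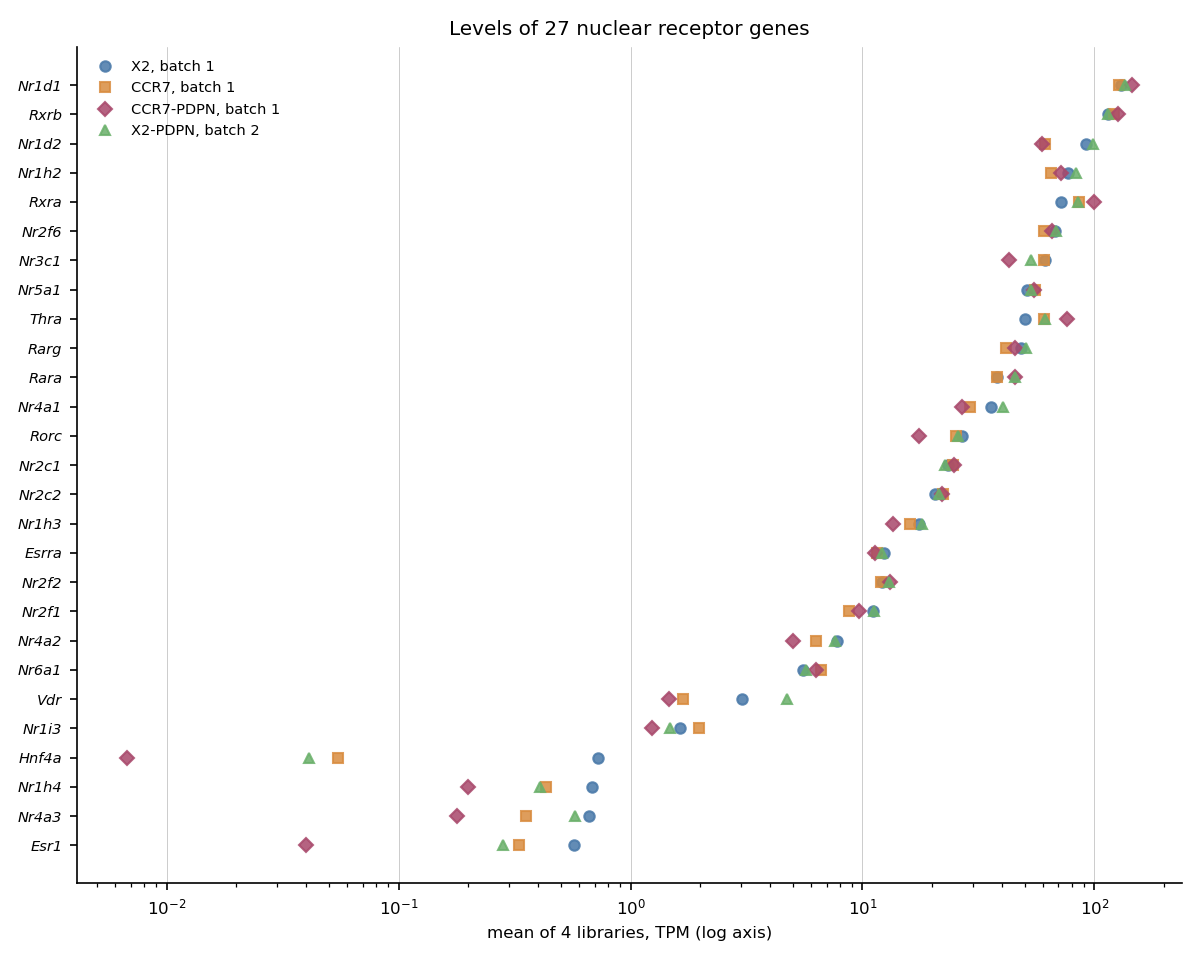
Mean TPM of 4 libraries (x axis, log scale) of the 27 nuclear receptor genes found in both tables (rows), for X2, CCR7 and CCR7-PDPN of batch 1 and X2-PDPN of batch 2. The symbols of most receptors lie close together, Nr3c1 is lower and Thra and Rxra are higher in CCR7-PDPN, and the largest shifts are among the lowest genes, Hnf4a and Esr1 (0.571 TPM in X2 and 0.0400 in CCR7-PDPN).

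Among the 20 tested receptors outside the set, 4 were higher and 8 lower in CCR7 against X2, 7 and 5 in CCR7-PDPN against CCR7, 8 and 8 in CCR7-PDPN against X2 of batch 1, 6 and 1 in X2-PDPN against X2, 4 and 8 in CCR7-PDPN against X2-PDPN, and 5 and 8 in CCR7-PDPN against X2 of batch 2. Medians lay between -0.07 and 0.02. The lower ones include Hnf4a in each comparison but CCR7-PDPN against X2-PDPN, and it is the 1 lower in X2-PDPN against X2. As Hnf4a passed the filter on low counts through X2, where it was highest, its part in these counts is no test. Thra, thyroid hormone receptor alpha, was higher in CCR7-PDPN than in X2 by 0.62 in batch 1 (SE 0.037, edgeR adjusted p = 3.9e-12) and 0.64 in batch 2 (SE 0.033, edgeR adjusted p = 1.6e-21), and by 0.37 in X2-PDPN than in X2. Its end overlaps Nr1d1 on the other strand. Rxra, a partner of Vdr, Rara and Rarg, rose in the same steps, with 0.25 for CCR7 and 0.24 for X2-PDPN, both against X2, and 0.49 and 0.50 in CCR7-PDPN against X2. Nr1d2, a circadian repressor, fell by 0.58 in CCR7 against X2 and by 0.72 in CCR7-PDPN against X2-PDPN.

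Receptor coregulators and pioneer factors (27 tested) changed in both directions: 5 higher and 4 lower in CCR7 against X2, 3 and 4 in CCR7-PDPN against CCR7, 6 and 5 in CCR7-PDPN against X2 of batch 1, 10 and 9 in X2-PDPN against X2, 8 and 10 in CCR7-PDPN against X2-PDPN and 11 and 9 in CCR7-PDPN against X2 of batch 2. Medians lay between 0.00 and 0.05. Ppargc1a is among the lower genes in every comparison, and as it passed the filter on low counts through groups where it was higher, its part is no test. Foxa1, the pioneer factor of luminal cells, was low, at 1.49 CPM in X2 and 0.648 in CCR7-PDPN of batch 2 (-1.19, SE 0.23, edgeR adjusted p = 1.8e-05). The coactivator Ncoa3 was at 0.39 in CCR7 against X2.

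Steroid-metabolizing enzymes (20 tested) were 8 higher and 5 lower in CCR7 against X2, 5 and 3 in CCR7-PDPN against CCR7, 10 and 5 in CCR7-PDPN against X2 of batch 1, 6 and 8 in X2-PDPN against X2, 6 and 4 in CCR7-PDPN against X2-PDPN, and 8 and 8 in CCR7-PDPN against X2 of batch 2. Medians lay between -0.06 and 0.16. The lower ones include Hsd11b1 in each comparison but CCR7-PDPN against X2-PDPN, and Cyp11a1 in both comparisons with X2 of batch 2. The higher ones include Hsd17b2 in both comparisons with X2 of batch 1. All 3 had a mean below 1 CPM and passed the filter on low counts through groups where they were higher, so their part in these counts is no test. Hsd17b11, a hydroxysteroid dehydrogenase of lipid droplets, was lower in CCR7-PDPN in all 4 comparisons, by a log2 fold change of -1.79 against CCR7, -2.03 and -1.66 against X2 and -2.05 against X2-PDPN (SE 0.12, edgeR adjusted p = 2.7e-19). Hsd17b7, which acts in both oestradiol and cholesterol synthesis, was higher, by 1.28 and 1.31 in CCR7-PDPN against X2 and 0.74 in X2-PDPN against X2 (SE 0.055, edgeR adjusted p = 1.7e-15). Hsd17b14, which oxidizes oestradiol, was at 1.09 in CCR7 against X2.

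Leaving out replicate 1 of CCR7 moved the counts of the 10 lists by at most 5 genes in CCR7 against X2 and in CCR7-PDPN against CCR7, and by at most 3 in the difference of differences. Their medians moved by at most 0.10, 0.04 and 0.09. The shift of 5 genes was among the receptor coregulators, which became 10 higher and 4 lower in CCR7 against X2 and 6 higher and 9 lower in CCR7-PDPN against CCR7. Oestrogen targets became 8 higher and 6 lower in CCR7 against X2, and chaperones stayed at 12 higher of 15 in CCR7-PDPN against CCR7. The 20 values that the naming rule gave on these lists in the 2 comparisons with CCR7 moved by at most 0.17 and passed the test without that replicate.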

How the data were processed

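Per the file headers and the methods, the authors mapped single-end 75-base reads of stranded poly(A) libraries to GRCm38/mm10 and deposited raw counts per Ensembl gene, with no normalization or pooling. Strand use in counting is not given in the sources used here. The batch 2 table holds genes with at least 10 counts in some library. Genes were matched by Ensembl identifier. The 9 genes, the gene lists and the rule for naming list genes (per comparison, up to 3 with the largest change past both thresholds and a mean of at least 1 CPM, otherwise the smallest adjusted p) were chosen with earlier results of these data known. A few genes of these lists are not reported here. Other receptors (Esr2, Pgr, Nr3c2, Esrrb, Esrrg, Thra, Rarb, Rxra and Rxrb) were named for their levels. Hnf4a, Nr1h4, Nr4a3, Nr5a1, Nr1d1, Star, Cyp24a1, Ppargc1a, Muc1, Ptprc and the fold changes of Rxra were named after their values were seen. So were Hsd11b1, Cyp11a1 and Hsd17b2. The lists share members, among them Greb1, Rara, Rxra, Sgk1, Fkbp5, Foxa1 and Ppargc1a.

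Counts were tested with edgeR 4.0.16 (R 4.3.3) using TMM, filterByExpr and robust glmQLFit over the 12 libraries of a batch, keeping 13261 and 13314 genes, or over all 24 for the difference of differences (13690 genes). P-values were adjusted by Benjamini-Hochberg over all genes tested. The fits were also run on simulated data, and no result of those runs is used here. CPM used TMM factors, and TPM used deposited exonic lengths over the 13915 genes in both tables. Alternatives were DESeq2 1.42.0, other scalings and filters, a replicate block, and leaving out each replicate. Neighbours are tested genes within 5 Mb of each end. Figures were drawn with matplotlib 3.10.9 in Python 3.11.15. The promoter sequences are those of RefSeq on GRCm38.p6.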

Additional observations from a re-analysis of the deposited data

Results flagged for a closer look

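In 4 of 60 groups of 4 libraries, 1 library lay far from the others by Dixon's ratio, the gap to the nearest library over the range of the group. Chance flags about 5% of groups. Pgrmc1 in X2 of batch 2 had a ratio of 0.896, with replicate 3 highest at 58.1 CPM, and in X2-PDPN a ratio of 0.907, with replicate 3 lowest at 44.0 CPM. Vdr in X2 of batch 2 had a ratio of 0.874, with replicate 1 lowest at 4.41 CPM, and in X2-PDPN a ratio of 0.947, with replicate 1 lowest at 6.48 CPM.

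The PDPN difference with CCR7 differed from that without it for 3 of the 8 genes tested, where it did for 40.8% of all genes: by -0.30 for Nr3c1, -1.74 for Greb1 and -0.78 for Vdr on the log2 scale (edgeR with Benjamini-Hochberg adjustment, adjusted p = 0.00035, 0.02 and 0.0001). Without replicate 1 of CCR7 it did for 2 of the 8, as Greb1 was at -1.43 (edgeR adjusted p = 0.08). Batch and CCR7 cannot be told apart in it.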

How the results depend on the processing

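The 4 libraries of a group are technical replicates of 1 population, so the values cannot speak for other populations. Levels under about 10 counts (Greb1, and Esr1 in CCR7-PDPN) are limited by depth. Of 1009 values for single genes under the alternatives, 959 kept direction and side of the threshold, 22 lost a call, 5 gained one and 23 changed sign, all of the last near 0.

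Genes called past both thresholds numbered 859, 433 and 1253 in batch 1 (CCR7 against X2, CCR7-PDPN against CCR7, CCR7-PDPN against X2) and 673, 1219 and 1282 in batch 2 (X2-PDPN against X2, CCR7-PDPN against X2-PDPN, CCR7-PDPN against X2). With a minimum of 1 CPM, which tests fewer genes, 548, 259 and 420 were called in CCR7 against X2, CCR7-PDPN against CCR7 and X2-PDPN against X2. With no filter 1891 were called in CCR7-PDPN against X2 of batch 1, and the cause was not tested. Without the fold threshold the 6 counts were 6534, 5513, 8071, 7560, 8411 and 8626. With it, members changed numbered 0, 0, 1, 1, 2 and 1. Leaving out each replicate gave ranges of 880 to 936, 424 to 480, 1289 to 1338, 716 to 753, 1265 to 1306 and 1336 to 1366 genes, and of 2 to 3, 4 to 4, 4 to 5, 5 to 6, 4 to 4 and 4 to 5 members, with 2 to 3 for the difference of differences. Esr1 kept its direction in each alternative run.

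Sign changes were in values that did not pass. In CCR7 against X2, Rara was at 0.00 with DESeq2, RLE scaling and the replicate block, and at -0.03 to 0.01 when a replicate was left out, and Nr3c1 at -0.06 to 0.05. In CCR7-PDPN against CCR7, Esrra was at 0.00 with no filter and at -0.05 to 0.05, and Pgrmc2 at -0.04 to 0.00, when a replicate was left out. In CCR7-PDPN against X2-PDPN, Rara was at -0.01 with upper-quartile scaling and at -0.02 to 0.04. In CCR7-PDPN against X2 of batch 2, Esrra was at 0.00 in a fit to the 8 libraries compared and at -0.04 to 0.05. Among passes, Pgrmc1 in CCR7 against X2 was lost under 7 alternatives, Rarg in CCR7-PDPN against X2 of batch 2 under 5, and Pgrmc2 in X2-PDPN against X2 under 9. The difference of differences of Greb1 was lost under 1. Passes were gained under 2 alternatives each by Rarg in X2-PDPN against X2 and by the difference of differences of Pgrmc2. Rarg in CCR7-PDPN against X2 of batch 1 passed under 1. With upper-quartile scaling 4 members passed the difference of differences.

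With the replicate number as a block, 854, 429, 1248, 671, 1223 and 1281 genes were called and 3, 4, 4, 6, 4 and 5 members changed, with 3 for the difference of differences. The numbers did not pair the samples. Deviations of libraries with the same number correlated at -0.249 to 0.268, those with different numbers at -0.217 to 0.228, and 7 of 24 libraries correlated best with their own number.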

Other observations

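Some receptors outside the set had levels that were not described above and were named after their values were seen. Hnf4a, a receptor of liver and gut epithelium, had 18 to 34 counts in X2 of batch 1, 2 in each CCR7 library and 0 or 1 in CCR7-PDPN. In batch 2 it had 15 to 27 counts for X2, 0 to 3 for X2-PDPN and 0 to 2 for CCR7-PDPN, so that X2 was above the other derivatives without overlap. Nr1h4, the bile acid receptor, had 9 to 13 counts for X2, 5 to 9 for CCR7 and 2 to 5 for CCR7-PDPN of batch 1, and 9 to 14, 5 to 11 and 1 to 4 in X2, X2-PDPN and CCR7-PDPN of batch 2.

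Nr5a1, the regulator of steroid-producing cells in gonads and adrenal cortex, had 51.2 TPM in X2 of batch 1 and 1369 to 2130 counts in the batch 1 libraries, close to Thra and Rarg. It overlaps the antisense gene Nr5a1os. Its known target Star had 32 to 67 counts in the batch 1 libraries.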
